A study of Mus musculus with 24 samples.

Results

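The data described here are 6 of the 24 RNA-seq libraries of the series: hypothalamic tissue taken 3 days (PEL_3d, n = 3) and 10 days (PEL_10d, n = 3) after pituitary stalk electrical lesion (PEL), in mice that received no growth hormone (GH). PEL cuts the link between hypothalamus and pituitary by passing current through a blade placed at the stalk. The mice were male C57BL/6J, and the tissue held the supraoptic nucleus (SON) and the paraventricular nucleus (PVN). Both groups were lesioned and no sham-operated library enters, so each value below is a difference between a late and an early lesion, and no value says whether a gene had returned to the level of intact tissue. The age of the mice, and whether each library is 1 mouse, are not given in the sources used here. The p-values therefore measure the spread between these samples, which may be partly technical.

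The pituitary stalk carries the axons of the large neurosecretory neurons of the SON and PVN, which make vasopressin (AVP) and oxytocin (OXT) and release them from the posterior pituitary. Destroying it severs those axons, damages vessels and wounds the hypothalamic floor. In brain wounds generally, microglia and invading macrophages clear debris and blood pigment, microglia and other cells divide, astrocytes take on a reactive state rich in intermediate filaments, and severed neurons switch on growth and stress genes. Later phases include scar remodelling, arrival of lymphocytes and repair of myelin.

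Library totals ran from 15395549 to 16668523 estimated counts, and the first principal component, 66.3% of the variance, separated the days. Replicates of a group differed by more than sampling noise, with a chi-square per degree of freedom of 6.28 to 11.3, so no library was a copy of another. Levels are given as CPM, estimated counts scaled to the library total and its TMM factor, and differences as log2 fold change of day 10 against day 3 with the standard error (SE). A gene was called when edgeR's quasi-likelihood test gave an adjusted p under 0.05 over the 14807 genes tested. PEL_10d-2 and PEL_10d-3 each stood apart in a set of genes, as described with the macrophage and the neuropeptide genes.

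Most of what differed between the days was lower at day 10. Of the genes tested, 938 (6.33%) were called higher and 1804 (12.2%) lower, 18.5% in either direction, and the falls were also larger. The median log2 fold change was 0.34 among genes called higher and -0.74 among genes called lower, against 0.013 over all genes tested. A called change of at least 1 on the log2 scale was a rise in 61 genes and a fall in 654, and 121 genes fell by at least 3. The count depended on the library: 1629 genes were called without PEL_3d-1, 1333 without PEL_3d-3 and 1478 without PEL_10d-2, and falls outnumbered rises each time.

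**Figure D1:**
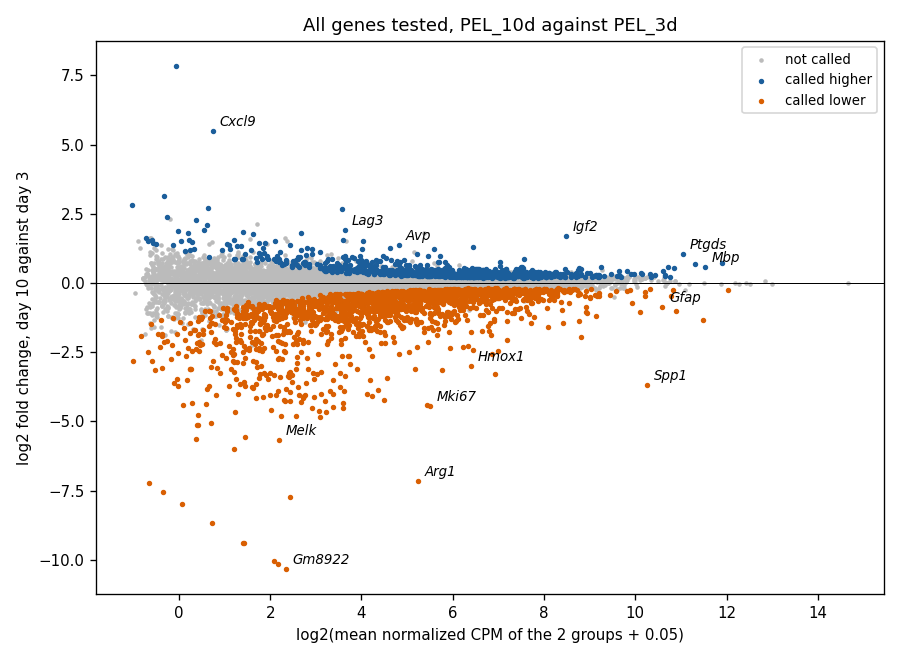
Log2 fold change of day 10 against day 3 (vertical axis) against the mean level of the 2 groups (horizontal axis, log2 of normalized CPM + 0.05), with 1 point for each of the 14807 genes tested. Falls reach past -10 while 9 called genes rose by 2 or more, and the fitted values of the lowest points, whose day 10 counts are 0, depend on the prior count and are no measure of size.

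Cell division was the gene group with the largest share of falls. Of 43 genes of the cell cycle and DNA replication, 42 were called lower and 0 higher, and the median on the log2 scale was -3.27. *Mki67*, which codes for the proliferation antigen Ki-67, had 88.4, 72.3 and 97.7 CPM at day 3 and 3.7, 3.15 and 4.91 CPM at day 10. Every day 3 library was far above every day 10 library, and the level fell 22-fold (log2 fold change -4.46, SE 0.17, edgeR adjusted p = 8.57e-07). *Top2a*, the topoisomerase that untangles replicated chromosomes, went from 81.2, 75 and 89.7 CPM to 3.95, 3.27 and 4.52 CPM, a 21-fold fall (SE 0.13 on the log2 scale, adjusted p = 4.87e-07). The cyclin gene *Ccna2* fell 16.1-fold, *Rrm2*, a subunit of the enzyme that makes deoxynucleotides, fell 17.1-fold, and the spindle factor *Tpx2* fell 11.4-fold. The member not called was *Anln*, which also serves cell types that do not divide, with 46.8, 42.3 and 59.4 CPM at day 3 and 34.1, 35.3 and 50.4 CPM at day 10. Leaving out any single library left 41 to 43 members called.

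The fall was deeper for genes of mitosis than for genes of replication. All 16 replication genes were called lower, at -4.10 to -0.49 on the log2 scale (median -1.61). Of the other 27 members, mostly mitotic, 26 were called lower, with a median of -3.61. Summed over the replication genes, the level was 190 to 202 FPKM at day 3 and 70.2 to 78.7 FPKM at day 10. The mitotic sum went from between 203 and 249 FPKM to between 25.4 and 31.1 FPKM. In bulk tissue, fewer dividing cells and less of these RNAs per cell cannot be told apart, and this holds for each cell type named below.

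**Figure D2:**
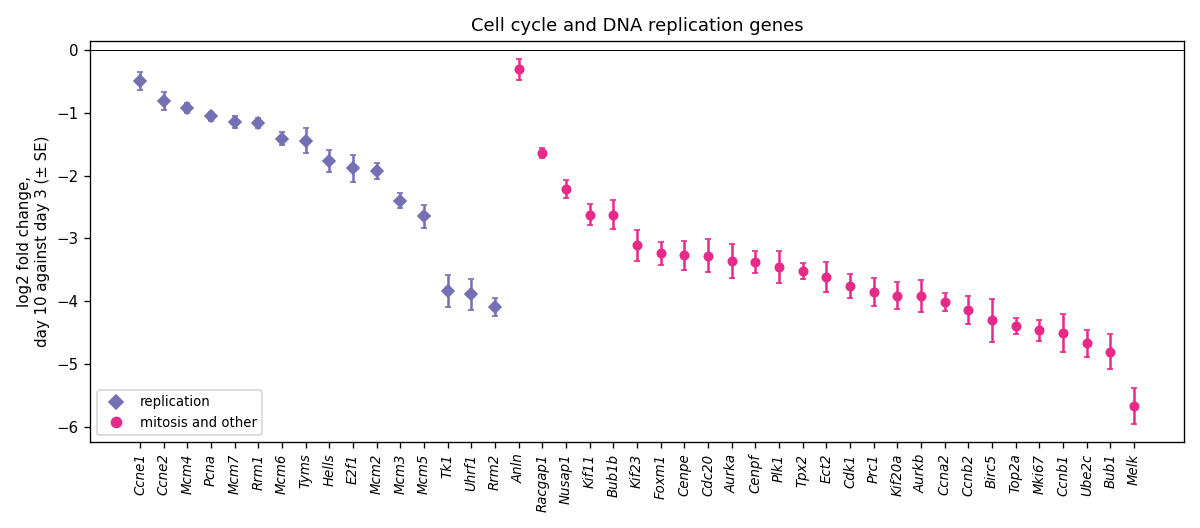
Log2 fold change of day 10 against day 3 (vertical axis, points with bars of ± SE from edgeR, 3 libraries per group) for each gene of the cell cycle list, replication genes as diamonds and the others as circles. The value nearest 0 is that of *Anln*, in the mitotic class, and 3 replication genes, *Tk1*, *Uhrf1* and *Rrm2*, lie among the mitotic values.

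Because the members of this group moved together, the promoters of a few are shown, with the motifs that the windows of each class hold. Windows of 300 bases, 250 before and 50 after the RefSeq start site, were searched on both strands for the cell cycle homology region (CHR, TTTGAA or TTCGAA), which is known from promoters of mitotic genes, for the CCAAT box (CCAAT), and for the E2F site (TTTCGCGC, TTTGGCGC, TTTCCCGC or TTTGCCGC), known from promoters of replication genes. A CHR stood in 17 of 22 windows of the mitotic class (77.3%) and in 2 of 14 of the replication class (14.3%), beside 13.6% of the 11514 genes tested that have a window and 19.4% of all 27025 windows. An E2F site stood in 5 of 14 replication windows (35.7%) and 1 of 22 mitotic windows (4.55%), beside 3.97% of genes tested and 2.33% of all windows. The CCAAT box was frequent in both, at 64.3% and 81.8%, against 38.3% of genes tested and 37.9% of all windows. A match is a description of the letters in the window, not evidence that a factor binds there. The windows shown were picked for the matches they hold; that of the mitotic gene *Ccnb1* has 0 CHR matches, and that of the replication gene *Uhrf1* 0 E2F sites. The mitotic genes below are *Cdk1* (GRCm38.p6 chr10:69352863-69353162, minus strand) and *Top2a* (chr11:99024140-99024439, minus strand), and the replication genes are *Mcm5* (chr8:75109259-75109558, plus strand) and *Mcm3* (chr1:20820263-20820562, minus strand). All are RefSeq sequence, written 5′ to 3′ on the strand of the gene, with capitals on every match to the 3 motifs in either orientation.
Cdk1: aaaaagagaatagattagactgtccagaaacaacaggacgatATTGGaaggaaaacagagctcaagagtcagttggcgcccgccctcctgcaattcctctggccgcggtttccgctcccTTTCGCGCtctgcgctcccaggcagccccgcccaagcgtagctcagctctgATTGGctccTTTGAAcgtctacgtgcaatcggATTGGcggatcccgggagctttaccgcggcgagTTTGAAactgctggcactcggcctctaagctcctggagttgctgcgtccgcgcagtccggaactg
Top2a: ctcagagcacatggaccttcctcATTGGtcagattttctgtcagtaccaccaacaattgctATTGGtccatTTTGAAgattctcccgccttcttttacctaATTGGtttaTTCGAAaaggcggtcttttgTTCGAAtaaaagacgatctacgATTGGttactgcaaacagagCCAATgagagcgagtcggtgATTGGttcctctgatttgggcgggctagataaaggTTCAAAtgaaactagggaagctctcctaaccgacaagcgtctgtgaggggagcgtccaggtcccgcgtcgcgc
Mcm5: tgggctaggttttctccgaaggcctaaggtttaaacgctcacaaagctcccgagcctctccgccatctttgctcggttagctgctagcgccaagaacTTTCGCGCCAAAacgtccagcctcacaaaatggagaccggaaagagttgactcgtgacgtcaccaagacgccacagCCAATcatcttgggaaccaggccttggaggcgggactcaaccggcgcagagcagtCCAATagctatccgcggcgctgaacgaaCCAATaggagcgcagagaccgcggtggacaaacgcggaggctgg
Mcm3: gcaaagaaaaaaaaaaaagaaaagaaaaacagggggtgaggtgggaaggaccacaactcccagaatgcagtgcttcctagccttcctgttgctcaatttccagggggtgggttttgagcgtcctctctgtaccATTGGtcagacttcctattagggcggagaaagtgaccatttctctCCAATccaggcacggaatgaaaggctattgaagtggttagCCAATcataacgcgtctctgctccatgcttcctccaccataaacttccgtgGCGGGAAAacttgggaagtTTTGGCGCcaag
The *Cdk1* window holds 2 CHR matches, 3 CCAAT boxes and 1 E2F site, and *Top2a* holds 4 CHR matches and 6 CCAAT boxes. Both helicase genes lack a CHR in this window and hold 2 E2F sites and 3 CCAAT boxes each, and in *Mcm5* the 2 E2F sites overlap on opposite strands. *Cdk1*, the kinase that drives entry into mitosis, had 18.8, 21 and 24.9 CPM at day 3 and 2.01, 1.39 and 1.38 CPM at day 10, a 13.5-fold fall. *Mcm5* had 25, 17.2 and 26.5 CPM and then 4.08, 3.45 and 3.41 CPM, a 6.27-fold fall, and *Mcm3* had a log2 fold change of -2.40 (SE 0.12). These 3 genes were chosen for their promoters after the values were seen.

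The arginase, osteopontin and heme oxygenase genes, which wound macrophages express, were also called lower. *Arg1*, the arginase of wound macrophages that also rises in injured neurons, had 68, 60 and 97.7 CPM at day 3 and 0.564, 0.424 and 0.59 CPM at day 10. No library of one day came near those of the other, and the fall was 142-fold (log2 fold change -7.14, SE 0.27, adjusted p = 8.57e-07). *Spp1*, which codes for osteopontin, fell from 1888, 1348 and 3620 CPM to 240, 90.2 and 208 CPM, 12.7-fold (adjusted p = 0.000501). *Hmox1*, the heme-degrading enzyme, fell from 145, 119 and 186 CPM to 23.5, 11.2 and 21.3 CPM, 8.07-fold (adjusted p = 5.84e-05). Of 19 genes of iron, heme and metallothionein, 7 were called lower and 0 higher, with a median of -0.35; only 3 were called without PEL_3d-3 and 4 without PEL_10d-3. Among them were *Fth1* and *Trf*, for ferritin and transferrin, with log2 fold changes of -0.47 and -0.45, and *Mt2* with -0.38. The call of *Fth1* was lost without PEL_3d-3 (adjusted p = 0.0805) and that of *Mt2* without PEL_10d-3 (0.0568).

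Lipid genes of macrophages went both ways. Of 18 tested, 6 were called lower and 4 higher (*Apoe*, *Apoc1*, *Pltp* and *Abcg1*), with a median of -0.36, and 6 were called in all without PEL_3d-3. The scavenger receptor genes *Msr1* and *Olr1* fell 10.8-fold and 12.3-fold, the lipid droplet coat gene *Plin2* 5.85-fold, and *Apoc2* 22.6-fold (log2 fold change -4.50, SE 0.29). *Olr1* rested on 79 counts at day 3 and 6 at day 10. In contrast, *Apoe*, the main lipid carrier of the brain, rose from 2925, 2646 and 3163 CPM to 5133, 3878 and 5302 CPM (log2 fold change 0.71, SE 0.12, adjusted p = 0.00408). Its neighbour *Apoc1* rose from between 3.94 and 5.28 CPM to between 6.09 and 11.4 CPM (log2 fold change 1.01, SE 0.24, adjusted p = 0.0193), but the call was lost without PEL_3d-1, PEL_3d-3, PEL_10d-1 or PEL_10d-2, with an adjusted p of up to 0.0808. These 4 genes were named after their values were seen.

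Genes that mark microglia in disease were divided. Of 30, 14 were called lower and 2 higher (*Apoe* and *Atp6v0d2*), with a median of -0.50. *Cd68*, a lysosomal glycoprotein of phagocytes, went from 170, 133 and 214 CPM to 91.4, 36.1 and 74 CPM (log2 fold change -1.36, SE 0.29, adjusted p = 0.0113), *Ch25h* fell 7.44-fold, *Ccl6* 2.94-fold and *Cd9* 1.88-fold. *Gpnmb*, a glycoprotein of lipid-laden phagocytes, was not called: it had 479, 217 and 587 CPM at day 3 and 478, 108 and 601 CPM at day 10, so that the spread within a day was larger than the difference between days. *Lgals3* had 102, 82.5 and 142 CPM and then 87.5, 16.4 and 63.7 CPM (log2 fold change -0.97, SE 0.45, adjusted p = 0.165). PEL_10d-2 was the lowest day 10 library for *Cd68*, *Gpnmb* and *Lgals3* alike.

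In *Atp6v0d2* and *Mmp12*, of the same list, the day 10 libraries spread widely. *Atp6v0d2*, a proton pump subunit of osteoclasts and macrophages, had 3.1, 1.02 and 5.38 CPM at day 3 and 25.8, 5.33 and 30.6 CPM at day 10 (log2 fold change 2.69, SE 0.64, adjusted p = 0.0198). PEL_10d-2 lay within the day 3 range, and the call was lost without PEL_3d-1, PEL_3d-2 or PEL_10d-3, with an adjusted p of up to 0.0719. *Mmp12*, the macrophage elastase, had 15.4, 20.5 and 18.8 CPM and then 121, 10.5 and 61.9 CPM. With the second day 10 library below every day 3 library, it was not called (log2 fold change 1.82, SE 0.63, adjusted p = 0.0766).

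In the lysosomal, phagocytosis and complement lists more genes were called lower than higher. Of 32 lysosomal genes, 19 were called lower and 0 higher (median -0.45), led by *Gusb* (3.31-fold), *Grn* (3.04-fold) and *Ctsh* (2.23-fold). Of 24 receptors and bridging molecules of phagocytosis, 14 were called lower and 2, *Stab2* and *Megf10*, higher (median -0.61). The scavenger receptor gene *Stab1* fell from 225, 164 and 259 CPM to 46.7, 24.5 and 46.3 CPM, 5.53-fold, and the integrin subunits *Itgav* and *Itgb5* and the bridging molecule *Pros1* fell 2.06-fold, 2.13-fold and 1.95-fold. In complement, 9 of 21 genes were called lower and 2, *C3* and its regulator *Serping1*, higher (median -0.41), and 6 in all were called without PEL_3d-3. The receptor genes *C5ar1* and *Itgam* fell 7.63-fold and 3.69-fold, and *C1qa* and *C1qc* fell 2.04-fold and 2.32-fold. *C3*, the central complement component, moved the other way, from 21.2, 18.5 and 24.1 CPM to 48.8, 26.4 and 33.4 CPM (log2 fold change 0.77, SE 0.20, adjusted p = 0.0297), a call lost without PEL_3d-1, PEL_3d-2 or PEL_3d-3 and, with the highest adjusted p of these settings (0.117), in one fit with the GH groups.

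Genes of homeostatic microglia were lower at day 10, with little spread between libraries. Of 20, 18 were called lower and 0 higher, and all 20 had a value below 0 (median -1.08). *Fcrls*, an Fc receptor-like gene of resident microglia, had 236, 231 and 241 CPM at day 3 and 59.3, 50.9 and 58.8 CPM at day 10, a 4.18-fold fall (SE 0.07 on the log2 scale, adjusted p = 8.51e-07). *Olfml3*, *Golm1* and *Tmem119* fell 3.36-fold, 3.14-fold and 2.62-fold. *Aif1*, which codes for the microglial protein Iba1, fell from 14.9, 18.1 and 20.5 CPM to 8.47, 10.1 and 7.86 CPM (log2 fold change -1.01, SE 0.15, adjusted p = 0.00199). The summed level of the list was 885 to 943 FPKM at day 3 and 383 to 424 FPKM at day 10. PEL_10d-2, low in *Cd68* and *Gpnmb*, did not stand apart here.

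Among markers of border macrophages, monocytes and neutrophils, every call was a fall. Of 10 border macrophage genes 6 were called lower and 0 higher (median -1.37), with *Pf4* and *F13a1* down 16.7-fold and 8.66-fold, *Folr2* 4.59-fold and *Siglec1* 2.81-fold; only 3 were called without PEL_10d-2, where *Siglec1* was lost (adjusted p = 0.0662). Of 10 monocyte genes 5 were called lower and 0 higher (median -1.34), and 3 were called without PEL_3d-3. *Chil3* had 11.1, 14.4 and 23.7 CPM and then 0.941, 0.545 and 0.197 CPM, a 28.6-fold fall, and the monocyte chemokine receptor gene *Ccr2* fell 2.88-fold. *Vcan* fell 1.47-fold and *F10* 4.79-fold, the latter not called without PEL_3d-3 (adjusted p = 0.0513). Of 8 neutrophil genes tested 4 were called lower, namely *Mmp8*, *Mmp9*, *Csf3r* and *Cxcr2*, which other leukocytes also express; the defining pair *S100a8* and *S100a9*, at 0.851 to 3.88 CPM at day 3 and 0.328 to 2.51 CPM at day 10, was not called. *Cxcr2* was lost without PEL_3d-3 (adjusted p = 0.0808). The B cell list had 1 gene tested, *Ighm*, not called (log2 fold change -0.28, SE 0.20).

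Cytokine genes were called lower or not at all, and chemokine genes were called in both directions. Of 20 cytokine and gp130 pathway genes, 10 were called lower and 0 higher (median -0.63): *Il11* fell 6.15-fold, *Socs3* 3.62-fold, *Il4ra* 2.5-fold and *Stat3* 1.54-fold. Among 15 chemokine genes 5 were called lower and 3, *Cxcl9*, *Ccl5* and *Cx3cl1*, higher (median -0.52). The monocyte attractants *Ccl2* and *Ccl7* fell 5.39-fold and 5.06-fold, *Ccl2* from 6.56, 2.8 and 7.39 CPM to 1.76, 0.363 and 0.983 CPM (adjusted p = 0.0101), and *Ccl9* fell 3.18-fold. *Cxcl9*, the interferon-gamma-induced attractant of T cells, was the gene with the largest rise under the naming rule. It had 1, 0 and 2 counts at day 3 and 28, 58 and 65 counts at day 10. The gene passed the filter on low counts only through its day 10 libraries, which largely sets the direction of its call. The ratio was 50.8 with a 95% counting interval of 17.1 to 249, which covers counting error only (edgeR adjusted p = 0.00048). Its level at day 10 was 1.76, 3.51 and 4.26 CPM.

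Other genes with the largest rises included ones that T and natural killer cells express, although which cells expressed them here was not tested. *Ccl5* had 0.547, 0.89 and 0.25 CPM at day 3 and 2.01, 3.81 and 1.44 CPM at day 10 (4.29-fold, adjusted p = 0.0198), *Il2rb*, the interleukin-2 receptor beta chain, rose 3.53-fold and the checkpoint receptor gene *Lag3*, from 5.71, 5.72 and 4.19 CPM to 16.6, 16.9 and 25.1 CPM, rose 3.74-fold (adjusted p = 0.000257). *Ccl5* was lost without PEL_3d-1, PEL_3d-3 or PEL_10d-2 (adjusted p of up to 0.0773) and *Il2rb* without PEL_3d-3 (0.0578). Only 4 of the 17 genes of the T and NK cell list passed the filter on low counts, with 1 called higher and a summed level over all 17 of 5.78 to 7.38 FPKM at day 3 and 7.75 to 15.8 FPKM at day 10. Leaving out single libraries changed which members passed, between 5 and 10, and the calls with them, from 0 without PEL_3d-3 or PEL_10d-2 to 4 without PEL_10d-3, the lowest day 10 library in the summed level. A gene near 0 at day 3 passes the filter only through its day 10 libraries, so the direction of these calls is largely set by the filter and by the library left out, and nothing is read from their number. *Slamf8*, of myeloid cells, rose 3.78-fold, lost without PEL_3d-1 or PEL_3d-3 (0.0707). The remaining large rises were *Cpz* (6.51-fold), a carboxypeptidase of the matrix, *Ucma* (4.9-fold) and *Nrk* (3.59-fold), the last lost without PEL_3d-1, PEL_3d-2, PEL_10d-1 or PEL_10d-3 (0.0907).

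Few interferon and antigen presentation genes were called. Of 36 interferon-stimulated genes 0 were called by edgeR, against 0 to 3 over the other settings tried, DESeq2 included, with 3 called without PEL_3d-3 and 1 without PEL_3d-1. At an unadjusted p under 0.05 there were 5, and the median was -0.11. *Ifit3* had 34.1, 44.6 and 76.8 CPM and then 58.1, 46.2 and 49.6 CPM, PEL_3d-3 being the highest of the 6. The 16 genes of MHC class I presentation also gave 0 calls by edgeR (1 at an unadjusted p under 0.05, and 0 to 1 over the other settings, DESeq2 included; 1 without PEL_3d-1 or PEL_3d-3), with *B2m* and *H2-D1* at log2 fold changes of -0.30 (SE 0.16) and 0.09 (SE 0.14). Of 13 class II pathway genes 3 were called lower (median -0.44). They were *Lgmn*, *Ifi30* and *H2-DMb1*, a lysosomal protease, a lysosomal thiol reductase and a peptide loading chain, with falls of 2.6-fold, 4.95-fold and 1.62-fold, the last lost without PEL_3d-1, PEL_3d-3 or PEL_10d-2 (0.0755). The class II genes that carry the peptide, *H2-Aa* and *H2-Ab1*, had log2 fold changes of 0.12 and -0.05 and were not called.

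**Figure D3:**
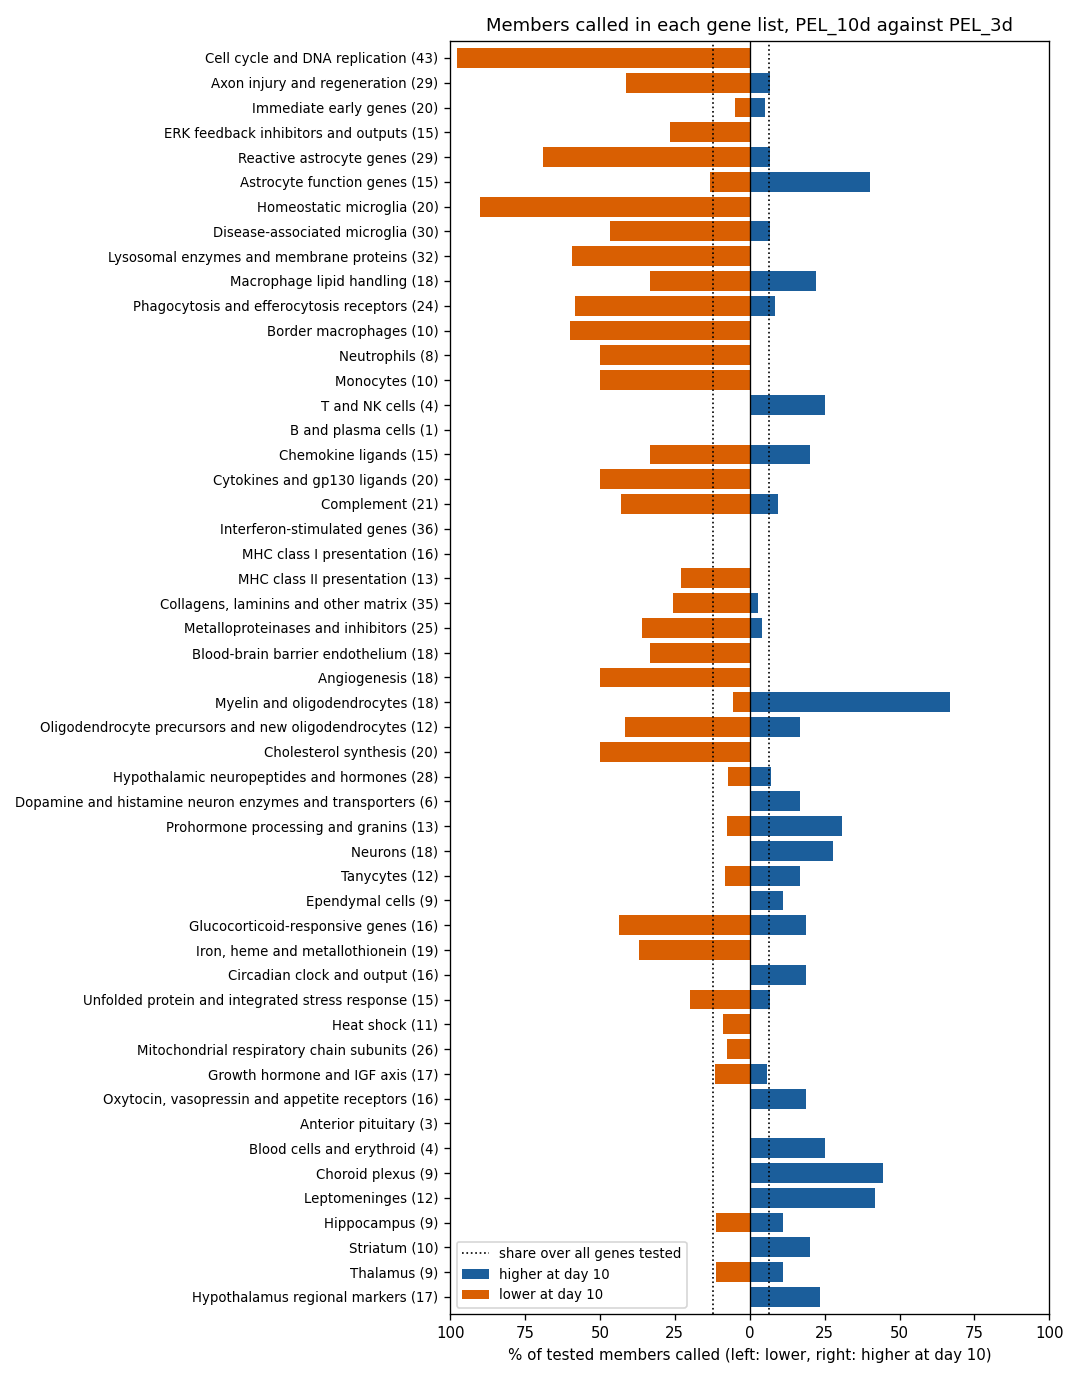
Share of tested members called lower (left, orange) and higher (right, blue) at day 10 in each of 51 gene lists, with the number tested in brackets and dotted lines at the shares over all genes tested, 12.2% lower and 6.33% higher. Cell cycle, microglia, astrocyte reactivity and macrophage lists extend far left of the dotted line, and myelin, choroid plexus and leptomeninges extend right.

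Most reactive astrocyte genes were called lower, and astrocyte function genes went both ways. Of 29 reactive genes 20 were called lower and 2, *Serping1* and *Amigo2*, higher (median -0.93). *Gfap*, the intermediate filament gene of astrocytes, had 2135, 1817 and 2055 CPM at day 3 and 1095, 948 and 1211 CPM at day 10, without overlap (log2 fold change -0.88, SE 0.10, adjusted p = 0.000395). Its partners *Vim* and *Nes* fell 3.88-fold and 4.93-fold, *Serpina3n* fell 2.73-fold, and *Tgm1*, a transglutaminase, fell 18.7-fold from 48.2, 35.4 and 44.8 CPM to 2.45, 2.78 and 1.57 CPM. The astrocyte function list had 6 of 15 genes called higher and 2, *Aldh1l1* and *Atp1b2*, lower (median 0.03), with 5 called in all without PEL_3d-3 or PEL_10d-3. The GABA transporter gene *Slc6a11* went from 727, 671 and 654 CPM to 868, 973 and 914 CPM (1.34-fold, adjusted p = 0.0034), and the connexin gene *Gjb6* and *Ntsr2* each rose 1.43-fold. *Aldh1l1*, a folate enzyme and pan-astrocyte marker, was called lower, at 122, 117 and 114 CPM and then 63, 63.6 and 63.5 CPM (1.85-fold).

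In the matrix list the calls were falls with 1 exception, and their number depended on the library. Of 35 matrix genes 9 were called lower and 1, *Col6a2*, higher (median -0.39), and in all 5 were called without PEL_3d-1 or PEL_3d-3 and 15 without PEL_3d-2. *Tnc*, for tenascin-C of provisional matrix, had 125, 53 and 112 CPM and then 13.7, 9.2 and 10.4 CPM, an 8.75-fold fall, *Thbs1* fell 9.75-fold, *Loxl2* 3.91-fold and *Col5a3* 3.44-fold. PEL_3d-2 was the lowest of the day 3 libraries in these 4 genes. *Col1a1* had 130, 60.6 and 169 CPM and then 147, 51.8 and 75.9 CPM, overlapping (log2 fold change -0.39, SE 0.40, adjusted p = 0.535). Of 25 metalloproteinases and inhibitors 9 were called lower and 1, *Adamts4*, higher (median -0.41), *Timp1* falling 7.66-fold, *Mmp8* 9.51-fold and *Plau* 3.39-fold.

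Angiogenesis genes fell in 9 of 18 (median -0.68) and blood-brain barrier genes in 6 of 18 (median -0.14), with 0 called higher in either list. *Lrg1* fell 5.03-fold, the fibronectin receptor subunit *Itga5* 3.69-fold, *Cd93* 2.88-fold and *Cd34* 2.17-fold. Among barrier genes the falls were smaller: *Pecam1* fell 1.82-fold, *Esam* 1.55-fold, the tight junction gene *Cldn5* 1.34-fold, from 47.7, 48.6 and 46.5 CPM to 37.6, 34.8 and 34.1 CPM, and the glucose transporter gene *Slc2a1* 1.26-fold. Signalling genes downstream of growth factors, the ERK feedback list, had 4 of 15 called lower and 0 higher (median -0.23), with 1 to 7 called as single libraries were left out (1 without PEL_3d-1, 7 without PEL_3d-2, 2 without PEL_10d-2 or PEL_10d-3). *Dusp6* fell 1.85-fold and was called in every setting tried, at log2 fold changes of -1.03 to -0.76, whereas *Dusp5*, *Etv4* and *Etv5*, with falls of 2.18-fold, 1.82-fold and 1.26-fold, each lost their call without PEL_3d-1 (adjusted p of up to 0.0549, 0.0756 and 0.111 over all settings).

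Myelin was the gene group with the most members called higher. Of 18 genes of myelin and oligodendrocytes, 12 were called higher and 1, *Trf*, lower, and 17 of 18 values lay above 0 (median 0.40). *Mbp*, for myelin basic protein, had 2363, 2344 and 2412 CPM at day 3 and 3621, 3471 and 3627 CPM at day 10, 1.51-fold higher without overlap (SE 0.06 on the log2 scale, adjusted p = 0.000265). *Cnp* rose 1.44-fold and the gap junction gene *Gjc3* 1.55-fold. The summed level of the list went from between 2817 and 2955 FPKM to between 3839 and 4049 FPKM. *Enpp6*, an enzyme of newly forming oligodendrocytes, had 6.93, 9.47 and 12.2 CPM and then 21.9, 19.7 and 25.7 CPM, 2.35-fold higher (adjusted p = 0.00243). Of the precursor markers, *Pdgfra* fell 1.34-fold, *Cspg4* 1.63-fold and *Ptprz1* 1.3-fold. In the list of precursors and new oligodendrocytes 2 of 12, *Enpp6* and *Tnr*, were called higher and 5 lower (median -0.06), with 4 in all called without PEL_3d-1, PEL_3d-3, PEL_10d-2 or PEL_10d-3.

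Cholesterol synthesis did not move with myelin. Of 20 genes 10 were called lower and 0 higher (median -0.29), among them *Msmo1* (1.44-fold), *Fdft1* (1.3-fold), *Stard4* (1.3-fold) and *Hmgcs1* (1.23-fold). These falls were small and the count dropped to between 4 and 6 without PEL_3d-1, PEL_3d-2, PEL_3d-3, PEL_10d-2 or PEL_10d-3. *Fdft1* lost its call without PEL_3d-1 or PEL_3d-2 (adjusted p of up to 0.054), and *Hmgcs1* in one fit with the GH groups (0.0591).

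Among genes that injured neurons switch on, falls outnumbered rises, and 15 were not called. Of 29 axon injury genes 12 were called lower and 2, *Adcyap1* and *Stmn4*, higher (median -0.26). *Sprr1a* had 30.8, 29 and 20.2 CPM at day 3 and 2.88, 3.15 and 3.14 CPM at day 10, an 8.69-fold fall (adjusted p = 1.14e-05). The injury transcription factor gene *Atf3* fell from 36.2, 43.7 and 31.9 CPM to 20.1, 9.93 and 17.9 CPM (log2 fold change -1.22, SE 0.22, adjusted p = 0.00571), and the laminin receptor subunit *Itga7* fell 2.55-fold. *Jun* had a log2 fold change of -0.22 (SE 0.08, adjusted p = 0.0816). *Gap43*, of growing axons, had 308, 365 and 316 CPM and then 324, 345 and 313 CPM, a log2 fold change of -0.01 (SE 0.08). Among 20 immediate early genes 1 was called higher, *Arc* (1.47-fold), and 1 lower, *Fosl1*, at 38 counts at day 3 and 5 at day 10 (median of the list 0.23). *Arc* lost its call in one fit with the GH groups and without any one of the libraries other than PEL_10d-1 (adjusted p of up to 0.0949).

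**Figure D4:**
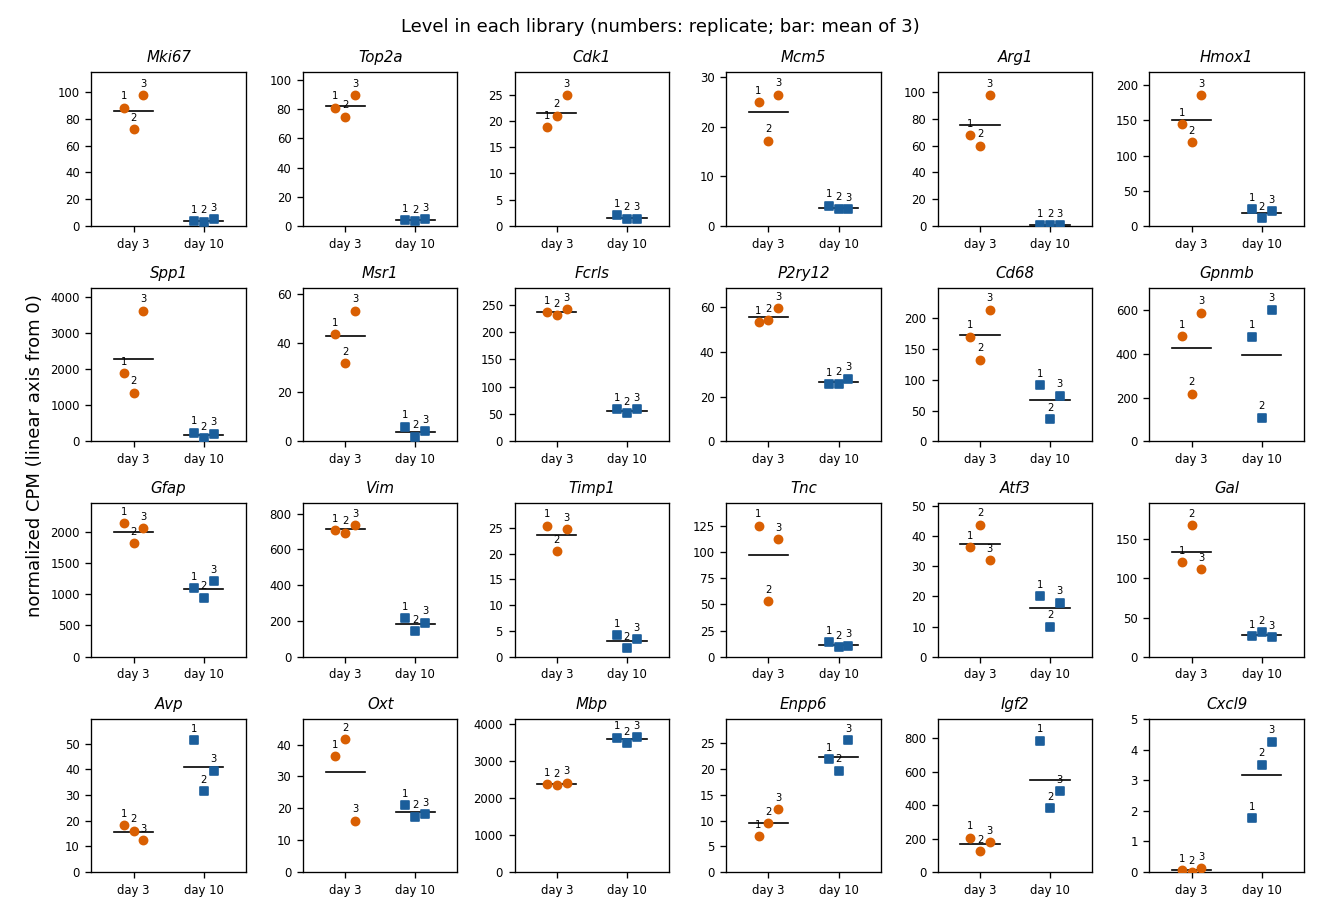
Normalized CPM (vertical axes, linear from 0, each with its own scale) of 24 genes in each of the 3 libraries at day 3 (circles) and day 10 (squares), numbered by replicate, with a bar at the mean. The days do not overlap in genes of division, microglia, astrocytes and myelin, whereas in *Gpnmb* and *Oxt* they do. Over all genes tested the days do not overlap in 37.7%.

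Of the neurosecretory hormones, *Avp* was higher at day 10 and *Oxt* was not called. *Avp* (GRCm38 chromosome 2, 130580620 to 130582554) had 18.2, 16.2 and 12.5 CPM at day 3 and 51.4, 31.5 and 39.5 CPM at day 10, so that every day 10 library was above every day 3 library (2.61-fold, log2 fold change 1.38, SE 0.19, adjusted p = 0.00113). The call was kept when any single library was left out and lost in one fit over the lesioned groups with and without GH, where the groups share 1 estimate of the spread (adjusted p = 0.113). *Oxt* had 36.3, 41.7 and 16.1 CPM and then 21.1, 17.4 and 18.2 CPM, PEL_3d-3 lying below all day 10 libraries (log2 fold change -0.73, SE 0.28, adjusted p = 0.105). *Crh*, of PVN stress neurons, was between 1.57 and 4.51 CPM at day 3 and between 2.07 and 2.88 CPM at day 10 and was not called (log2 fold change -0.13, SE 0.37). *Gal*, for galanin, a peptide known to rise in injured neurosecretory cells, fell from 121, 168 and 112 CPM to 26, 31 and 25.2 CPM, 4.87-fold (adjusted p = 2.06e-05).

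In the whole neuropeptide list 2 of 28 genes were called higher, *Avp* and *Adcyap1*, and 2 lower, *Gal* and *Npvf* (median 0.04), a share below that over all genes tested. *Adcyap1* rose 1.19-fold and *Npvf* fell 2.06-fold, and both lost their call when PEL_3d-1, PEL_3d-2 or PEL_3d-3 was left out, among others (adjusted p of up to 0.114 and 0.131). PEL_10d-3 stood apart here. It had 10.4 CPM of *Pomc* against 79.6 and 57.1 CPM in the other day 10 libraries, 7.66 against 45.8 and 31.2 CPM of *Npy*, 0.131 against 4.58 and 2.24 CPM of *Agrp*, and 1.11 against 7.96 and 7.32 CPM of *Ghrh*, all peptides of the arcuate nucleus. Without PEL_3d-1 the list had 2 called in all. Without PEL_10d-3, 7 of 28 were called higher and 2 lower, and *Ghrh* (log2 fold change 1.89, adjusted p = 0.00149), *Pomc* (0.78, 0.0309), *Cartpt* (0.45, 0.0178), *Pdyn* (0.44, 0.00552) and *Sst* (0.35, 0.0393) were among the higher ones. *Vip*, of the suprachiasmatic nucleus, was then called lower (-1.30, 0.00608), with 19.1 CPM in PEL_10d-3 and 4.64 and 4.48 CPM in the other day 10 libraries. Whether the tissue was cut differently was not tested.

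Regional marker genes showed the same library apart. Of 17 genes that mark hypothalamic regions 4 were called higher and 0 lower (median 0.36), among them *Nkx2-1* 1.52-fold, *Prlr* 1.34-fold and *Magel2* 1.31-fold. The count was 7 without PEL_10d-3, 0 without PEL_3d-3, 2 without PEL_3d-1 or PEL_10d-1 and 1 without PEL_10d-2. Of 12 tanycyte genes 2 were called higher and 1 lower (median 0.51), 5 without PEL_10d-3 and 1 without PEL_3d-3 or PEL_10d-2; *Gpr50* had 48.9, 42.4 and 13.2 CPM at day 10 against 12.8 to 15.7 CPM at day 3, *Ppp1r1b* rose 1.54-fold, and *Vcan* was the member lower. The summed level of the regional markers was 109, 100 and 74 FPKM in the day 10 libraries and 76.7 to 82.8 FPKM at day 3. Markers of the neighbouring hippocampus had 1 of 9 called higher (*Prox1*) and 1 lower, striatum 2 of 10 higher (*Gpr6*, *Rgs9*) and 0 lower, and thalamus 1 of 9 higher (*Plekhg1*) and 1 lower (*Prkcd*), with medians of 0.32, 0.13 and 0.32. Leaving out single libraries gave 1 to 2 calls in the hippocampus list, 0 to 2 in striatum and 1 to 4 in thalamus, 4 being the count without PEL_3d-2. Ependymal genes had 1 of 9 called higher, *Ccdc153* (median 0.01). *Gpr6*, *Rgs9*, *Prox1*, *Prkcd* and *Ccdc153* each lost their call without PEL_3d-3, with adjusted p of up to 0.198 over the settings.

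Most general neuronal and prohormone processing genes were not called, and those called were higher, with small differences, apart from *Vgf*. The shares called, 27.8% of neuronal and 38.5% of prohormone processing genes, were above the 18.5% over all genes tested. Of 18 neuronal genes 5 were called higher and 0 lower, and 17 values lay above 0 (median 0.20). *Slc17a6*, the glutamate transporter gene of hypothalamic excitatory neurons, rose from 228, 231 and 226 CPM to 264, 302 and 303 CPM (1.27-fold, adjusted p = 0.00818), *Map2* rose 1.25-fold, *Rbfox3* 1.22-fold and *Syn1* 1.18-fold, the last 3 not called without PEL_3d-3 or PEL_10d-2, among others (adjusted p of up to 0.142). The count was 1 without PEL_3d-3 or PEL_10d-2, 3 without PEL_3d-1 and 8 without PEL_10d-1. Of 13 genes of prohormone processing 4 were called higher and 1, *Vgf*, lower (median 0.23), and 2 to 3 in all without PEL_3d-1, PEL_3d-3 or PEL_10d-2. The carboxypeptidase gene *Cpe* had 1458, 1566 and 1444 CPM and then 2033, 2222 and 2325 CPM (1.47-fold, adjusted p = 0.000925), the convertase gene *Pcsk1* rose 1.39-fold, the amidating enzyme gene *Pam* 1.21-fold and *Chgb* 1.2-fold. *Pam* and *Chgb* lost their call without PEL_3d-3 or PEL_10d-2, and *Chgb* also without PEL_3d-1 (adjusted p of up to 0.0859 and 0.101). The monoamine transporter gene *Slc18a2* was the 1 of 6 dopamine and histamine neuron genes called (1.41-fold higher, median of the list 0.17, 2 called without PEL_10d-3), not called in one fit with the GH groups (adjusted p = 0.0679). Of 16 receptor genes for oxytocin, vasopressin and appetite signals 3 were called higher and 0 lower (median 0.27), *Glp1r* 1.77-fold, *Lepr* 1.7-fold and *Ghsr* 1.67-fold, with 0 called without PEL_3d-2 and 1 without PEL_3d-1, PEL_3d-3 or PEL_10d-2.

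Genes of the meninges and of the choroid plexus were called higher or not at all. Of 12 leptomeningeal genes 5 were called higher and 0 lower (median 0.64), and of 9 choroid plexus genes 4 were called higher and 0 lower (median 0.42). *Igf2*, a growth factor gene of the meninges, had 206, 124 and 179 CPM and then 785, 380 and 485 CPM, 3.24-fold higher (adjusted p = 0.00231). *Ccn3* rose 2.33-fold, *Ranbp3l* 1.75-fold and *Slc47a1* 1.74-fold, *Ranbp3l* not being called in one fit with the GH groups (adjusted p = 0.0887). The choroid plexus count was 2 without PEL_3d-1, PEL_3d-3, PEL_10d-2 or PEL_10d-3; *Kl* rose 1.78-fold, *Kcnj13* 1.82-fold and *Clic6* 1.49-fold. The defining choroid gene *Ttr* had 1.34, 0.318 and 5.57 CPM and then 3.83, 5.75 and 13 CPM and was not called, and the summed choroid level was 16.6 to 22.1 FPKM at day 3 and 27.8 to 33.5 FPKM at day 10. *Igf2* was the 1 of 17 genes of the GH and IGF axis called higher, and the binding protein genes *Igfbp3* and *Igfbp7* fell 1.96-fold and 2.21-fold (median of the list 0.17).

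Glucocorticoid-responsive genes were called in both directions. The share called was 18.8% in the clock list and 26.7% in the unfolded protein response list, against 18.5% over all genes tested. It was 9.09% for heat shock genes and 7.69% for respiratory chain subunits. Of 16 glucocorticoid-responsive genes 7 were called lower and 3, *Klf9*, *Sult1a1* and *Tsc22d3*, higher (median -0.28): *Cdkn1a* and *Ddit4* fell 2-fold and 1.45-fold, and *Klf9* and *Sult1a1* rose 1.46-fold and 1.93-fold. Of 16 clock genes 3 were called higher and 0 lower (median 0.19), *Hlf* 1.41-fold, *Nr1d1* 1.29-fold and *Tef* 1.15-fold, with 1 called without PEL_3d-3, where *Nr1d1* and *Tef* were lost (adjusted p of up to 0.073 and 0.162 over the settings); the hour of collection is not given in the sources used here. In the unfolded protein response 1 of 15 was called higher, *Herpud1*, and 3 lower, *Pdia4*, *Psat1* and *Atf4*, by 1.37-fold, 1.43-fold and 1.18-fold (median -0.11), with 2 called without PEL_3d-2, PEL_3d-3, PEL_10d-2 or PEL_10d-3. *Hspa1b* was the 1 of 11 heat shock genes called, lower (1.52-fold, median -0.10, 2 called without PEL_3d-2), and *Sdhc* and *Uqcrfs1* were the 2 of 26 respiratory chain subunits called, both lower (median -0.12). *Herpud1*, *Atf4*, *Hspa1b*, *Sdhc* and *Uqcrfs1* lost their call without PEL_3d-3, among others (adjusted p of up to 0.151, 0.169, 0.123, 0.0801 and 0.11).

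Pituitary and blood markers served to check what else the tissue held. Only 3 of the anterior pituitary genes passed the filter and 0 were called by edgeR (0 also at an unadjusted p under 0.05 and by DESeq2), with a summed level of 11 to 25.1 FPKM at day 3 and 5.09 to 35.6 FPKM at day 10. *Cga*, the shared subunit of pituitary glycoprotein hormones, was highest in PEL_10d-1 at 21.4 CPM, and *Tbx19* stayed at or below 1.69 CPM. The 4 of 8 blood cell genes that passed the filter, all hemoglobin genes, were all above 0, with log2 fold changes of up to 1.80 (median 1.56, and 1.61 with GH), and had an unadjusted p under 0.05 each, and PEL_10d-3 was the highest library in all 4. Of these 1, *Hba-a2*, was called higher, at 2.61, 2.48 and 3.32 CPM and then 3.7, 6.36 and 19.4 CPM, and its call was lost by DESeq2, in one fit with the GH groups and without PEL_10d-3 or any one day 3 library (adjusted p of up to 0.126). The list had 3 called without PEL_10d-1 and 0 without PEL_3d-2, PEL_3d-3 or PEL_10d-3. The part of blood left in the tissue in the other results was not tested.

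A family of related gene models gave the largest fitted falls of all. *Gm8922* (GRCm38 chromosome 5, 11681959 to 11686856), *Gm8897*, *Gm6460*, *Gm6465*, *Gm5152* and *4933402N22Rik* had 0 counts in every day 10 library. *Gm8922* had 134, 250 and 100 counts at day 3, so that it was at least 53.5-fold lower, taking 3 counts per library, or 0.189 CPM, as the floor. The other 5 were at least 46.8-fold, 44.1-fold, 28.1-fold, 27.6-fold and 16.9-fold lower in the order given. *Gm5861*, with 512 counts at day 3 and 2 at day 10, had a ratio of 254 with a 95% counting interval of 69.9 to 2100. All 7 lie on chromosome 5, were highest in PEL_3d-2 and did not pass the filter on low counts with GH. Without GH they passed it only through their day 3 libraries. The deposited counts of several are not whole, and reads of related copies could be split between them, so their separate values are uncertain, and intervals and floors cover counting error only.

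The same contrast in mice that also received GH used 6 other libraries, PEL_3d-GH and PEL_10d-GH. There 713 genes (4.81%) were called higher and 1602 (10.8%) lower of 14838 tested, although the count depended strongly on the library left out (704 to 4435 in all). Of the 934 genes called higher without GH and tested with it, 924 (98.9%) were above 0 with GH, where 50.4% of all genes tested were. These 934 had a median of 0.33 with GH, and 379 (40.6% of them and 53.2% of the genes called higher with GH) were called higher and 0 lower. Of the 1786 called lower, 1771 (99.2%) were below 0, with a median of -0.64, and 1250 (70%, and 78% of the genes called lower with GH) were called lower and 0 higher. The cell cycle list had a median of -3.19 with GH, homeostatic microglia -0.61, reactive astrocytes -0.66 and myelin 0.64. Other lists had different counts: with GH, cholesterol synthesis had 0 called lower (against 10 without GH, medians -0.09 and -0.29), the receptors for oxytocin, vasopressin and appetite signals 0 called higher (against 3), choroid plexus 1 higher (against 4) and immediate early genes 6 higher (against 1). The lists whose median had the opposite sign with GH were neutrophils (1.16, against -0.91), tanycytes (-0.51, against 0.51), ependymal cells (-0.20, against 0.01), ERK feedback (0.03, against -0.23) and the B cell list with its 1 gene (0.13, against -0.28). With GH, 3 neutrophil genes were called higher, *Ngp* at a log2 fold change of 3.53, *Ltf* at 2.58 and *S100a9* at 2.12, and 2 lower, *Mmp8* and *Mmp9*. The tanycyte genes *Crym*, *Vcan* and *Dio2* were called lower with GH (-1.45, -1.06 and -0.72) and *Ppp1r1b* higher (0.73).

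Among single genes, *Mki67* had a log2 fold change of -4.40 with GH (SE 0.31), *Arg1* -6.84, *Hmox1* -3.26, *Spp1* -4.62, *Mbp* 0.74 and *Enpp6* 1.27 (SE 0.13), all called. *Gfap* and *Avp* kept their direction, at -0.42 and 1.26, and were not called (adjusted p = 0.202 and 0.197). *Atp6v0d2* had 0.13 and *Gpnmb* -1.32, neither called. The test of whether the difference between days itself differed with GH gave 0 calls of 15091 genes by edgeR and by DESeq2, with 440 genes (2.92%) at an unadjusted p under 0.05. A p that misses the threshold does not show that the day difference was equal with and without GH.

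**Figure D5:**
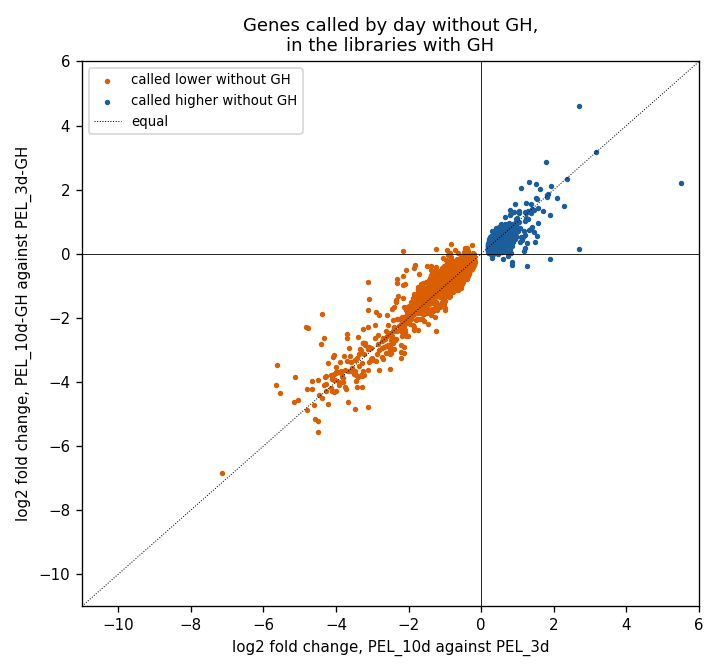
Log2 fold change of day 10 against day 3 without GH (horizontal axis) and with GH (vertical axis), 1 point per gene called without GH and tested in both, with a dotted line of equality. Nearly all points lie in the quadrants of equal sign, 924 of 934 for genes called higher and 1771 of 1786 for genes called lower.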

How the data were processed

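RNA was sequenced from hypothalamic tissue with a SMARTER mRNA-Seq kit. According to the methods, the authors aligned reads with Hisat2 and counted them per gene with Feature Counts; the labels name GRCm38/mm10. The deposited table holds estimated counts, 8.51% of them not whole in the 6 libraries, and FPKM values; the cause of the fractions is not given in the sources used here. Counts were rounded. Symbols were assigned by Ensembl identifier (22219 of 22274 matched; the table's own symbols equal the reference symbol for 72.6%), with coordinates from GENCODE vM21.

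Differences were tested with edgeR 4.0.16 (R 4.3.3): TMM scaling (factors 0.9916 to 1.01), filterByExpr with a minimum count of 10, the two-sided quasi-likelihood test and Benjamini-Hochberg adjustment over all genes tested. DESeq2 1.42.0 was an alternative. The code was checked on simulated data. PEL_10d was compared with PEL_3d, the GH groups in the same way, and the interaction over the 4 lesioned groups. Summed list levels use the deposited FPKM values over all members in the table. Totals of 15395549 to 16668523 counts limit genes at a few counts, where 95% exact counting intervals are given.

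The named genes are the 8 largest rises and falls (adjusted p under 0.05, groups not overlapping, mean CPM of at least 1), up to 4 called members per list by p (or, with none called, up to 2 by level), and 20 fixed genes. A few genes that the rule names are not reported here. Other names were chosen after their values were seen. The groups compared and the gene lists were chosen with earlier results of these data known.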

Additional observations from a re-analysis of the deposited data

How the results depend on the processing

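The day difference kept its excess of falls in every setting tried. Against 2742 genes called, an unadjusted p under 0.05 gave 5021 (2278 higher, 2743 lower) and requiring in addition a change of 1 on the log2 scale gave 715 (61 higher, 654 lower). Leaving out single libraries gave 1333 to 2799 (1629 without PEL_3d-1, 1478 without PEL_10d-2), the rises being 275 without PEL_3d-3, 329 without PEL_10d-2, 399 without PEL_3d-1 and 1093 without PEL_10d-1. DESeq2 gave 2809, DESeq2 size factors 2750, no filter 2710, a mean count of at least 50 2457, and one fit over the 4 lesioned groups 2620. With GH the count of 2315 ranged from 704 to 4435 as libraries were left out (704 without PEL_3d-GH-1, 1070 without PEL_3d-GH-2, 4435 without PEL_3d-GH-3, 1169 without PEL_10d-GH-1 and 967 without PEL_10d-GH-2). The interaction gave 0 throughout. The cause of these shifts was not tested.

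With the replicate number as a block, 3376 genes were called by day without GH, 1116 with GH (against 2315) and 0 for the interaction. The number of members called shifted widely in 10 gene lists, among them the matrix list, where 24 of 35 genes were then called. Whether the numbers pair the samples cannot be told from 3 libraries a group. Deviations of same-numbered libraries correlated at 0.0489, 0.298 and 0.03. PEL_3d-3 and PEL_10d-1 correlated best with each other (0.238) and not with their own number.

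Of 202 genes named by rule or in the observations, 187 were called, 132 kept their call in every setting tried and 0 were called with the opposite sign; most calls were lost without PEL_3d-3 (42) and PEL_10d-2 (31). Small rises and genes at a few counts are limited by depth and by 3 libraries a group.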

Other observations

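The genes below lie outside the lists and were picked one by one after their values were seen, so they stand for no group. The small proteoglycan gene *Fmod* had 60.8, 44.6 and 46 CPM at day 3 and 159, 96.3 and 118 CPM at day 10 (log2 fold change 1.30, SE 0.18, edgeR adjusted p = 0.00125), and its relatives *Ogn* and *Omd* rose 1.95-fold and 2.75-fold. *Ptgds*, the prostaglandin D synthase of meninges and oligodendrocytes, rose from 1659, 1183 and 1287 CPM to 3844, 2407 and 2237 CPM, 2.06-fold (adjusted p = 0.00756). *Cyp26b1*, which degrades retinoic acid, rose 2.84-fold, *Bmp6* 1.8-fold and the sulfate transporter gene *Slc13a4* 1.67-fold. The call of *Slc13a4* was lost in DESeq2, with a mean count of at least 50, in one fit with the GH groups and without PEL_3d-2, PEL_3d-3, PEL_10d-1 or PEL_10d-3 (adjusted p of up to 0.169), and that of *Bmp6* in the fit with the GH groups and without PEL_3d-2, PEL_3d-3 or PEL_10d-1 (up to 0.0813). PEL_10d-1 was the highest library in *Fmod*, *Ptgds*, *Bmp6* and *Slc13a4*, as it was in *Igf2*; how much meningeal tissue each library held was not tested.

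*Agt*, for the angiotensinogen that astrocytes secrete, had 135, 131 and 131 CPM and then 249, 249 and 231 CPM (1.84-fold, SE 0.06 on the log2 scale, adjusted p = 1.89e-05), and *Sparcl1* rose 1.63-fold. Of genes for the actin skeleton, *Tmsb4x* fell 2.3-fold, *Msn* 2.73-fold and *Actb* 1.66-fold, *Actb* from 1241, 1122 and 1261 CPM to 826, 693 and 662 CPM (adjusted p = 0.00072), so that *Actb*, often used to normalize, differed between the days. *Tgfbi*, of wound macrophages and matrix, fell 5.06-fold, and *Hmga2*, a chromatin protein of growing tissue, had 254 counts at day 3 and 5 at day 10, a ratio of 50.3 with a 95% counting interval of 21.3 to 156. *Hmga2* passed the filter on low counts only through its day 3 libraries.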
